A study of Homo sapiens with 6 samples.

Results

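The 36 genes described here encode the chaperones, degradation factors, translocon proteins and stress sensors of the endoplasmic reticulum (ER) and its unfolded protein response. They were chosen by name, and 35 of the 36 had a probe set annotated with that gene alone, out of 19775 genes on the array. The gene without one was SYVN1. The 35 comprised 17 chaperones and foldases, 5 factors of ER-associated degradation, 6 translocon and export proteins and 7 sensors and transcription factors. Where a gene had several probe sets annotated with it alone, the brightest of these by its 6-array mean stood for it.

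The RNA came from tumours of the established human colon cancer cell line HT-29, grown in both femoral regions of Balb/c (nu/nu) mice, which lack a thymus and mature T cells. The mice were 6 to 8 weeks old at injection. The treated pool was RNA of tumours taken 4 h after 30 min of electromagnetic heating on day 18, and the series title names the method as modulated electro-hyperthermia. The opposite pool was RNA of the unheated tumours on the other side of heated animals, and the control pool was RNA of control tumours. All 3 pools shared the cell line, the host strain and the dissection of tumour areas from frozen sections. The RNA of each pool was run on 2 arrays, technical replicates by their titles. The comparisons below therefore describe 3 pools, no test between conditions was possible, and every SD is that of 2 arrays of the same RNA. The number of animals in a pool is not given in the sources used here.

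The ER folds secreted and membrane proteins with the help of HSP70-type and lectin chaperones and of disulphide isomerases. When unfolded proteins accumulate, the sensors IRE1 (gene ERN1), PERK (EIF2AK3) and ATF6 switch on a transcription programme through XBP1, ATF4 and cleaved ATF6. Its targets add chaperones, widen the secretory pathway and send misfolded proteins to the proteasome. Secretory epithelia, including that of the intestine, depend on this programme.

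Many promoters of chaperone genes carry the ER stress response element (ERSE), read by ATF6 together with the CCAAT-binding factor NF-Y. Promoter sequences from RefSeq (GRCh38.p14, 250 bases before to 50 after a transcription start) were matched for 33 of the 36 genes and searched on both strands. The genes without a match were PDIA3, DERL1 and SEC24D. The ERSE is CCAAT and CCACG separated by 9 bases of any kind. It was found in promoters of 8 of these 33 genes, and of 0.0916% of all 27305 genes. ERSE-II, ATTGG and CCACG separated by 1 base, was found in promoters of 3 of the 33 and of 0.0696% of all genes. The 8 genes were HSPA5, HSP90B1, CALR, CANX, PDIA6, CRELD2, SERP1 and XBP1, and the 3 were SDF2L1, HYOU1 and HERPUD1. The following stretch is the HSPA5 promoter, chr9:125241344-125241593 on the minus strand, the 250 bases before the start. It is shown because HSPA5 had the largest treated minus control difference of the 35 genes. Capitals mark its exact ERSE.
HSPA5: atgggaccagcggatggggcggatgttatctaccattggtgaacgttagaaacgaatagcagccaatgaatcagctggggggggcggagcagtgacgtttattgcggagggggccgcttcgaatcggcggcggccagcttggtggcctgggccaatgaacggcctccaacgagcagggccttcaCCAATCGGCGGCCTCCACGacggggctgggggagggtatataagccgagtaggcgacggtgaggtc

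The elements of 7 other genes are given with 15 bases on either side, 5′ to 3′ on the strand of the gene, so that genes past the size rule below (PDIA6, XBP1, HERPUD1) can be read beside genes that were not (CANX, CRELD2, SERP1, HYOU1). Capitals mark the element, which lies in reverse complement in CRELD2, SERP1 and HYOU1.
PDIA6 (chr2:10812838-10812886, minus strand): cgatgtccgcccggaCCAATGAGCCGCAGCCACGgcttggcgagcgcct
XBP1 (chr22:28800588-28800636, minus strand): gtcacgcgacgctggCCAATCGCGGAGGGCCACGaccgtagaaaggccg
CANX (chr5:179698763-179698811, plus strand): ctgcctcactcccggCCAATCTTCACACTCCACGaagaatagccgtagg
CRELD2 (chr22:49918539-49918587, plus strand): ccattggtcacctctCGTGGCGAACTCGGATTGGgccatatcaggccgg
SERP1 (chr3:150546695-150546743, minus strand): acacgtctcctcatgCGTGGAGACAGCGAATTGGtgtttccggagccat
HERPUD1 (chr16:56932010-56932050, plus strand): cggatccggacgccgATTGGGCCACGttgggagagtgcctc
HYOU1 (chr11:119057259-119057299, minus strand): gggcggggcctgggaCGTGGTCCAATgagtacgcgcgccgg

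The shorter CCAAT box, CCAAT, lies inside the ERSE and in reverse inside ERSE-II. It was present in promoters of 28 of the 33 genes, against 39.7% of all genes. The UPRE core bound by XBP1, TGACGTGG, was present in those of HYOU1 and SSR3 (0.927% of all genes). In HYOU1 it overlapped 1 of its 2 ERSE-II sites. The CRE-like sequence TGACGTCA was present in that of CREB3L2 (2.25% of all genes). A heat shock element was searched as 3 blocks alternating between GAA and TTC with 2 bases between blocks. It was present in 0 of the 33 and in 0.608% of all genes.

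Values are log2 expression after the GCRMA method. By the size rule, a gene is called higher or lower where 2 pool means were 0.25 or more apart (1.19-fold), the arrays of the pools did not overlap, and neither array of the higher pool was below 5. A gene is called detected where a pool mean reached 5, and 34 of the 35 genes were detected in the treated or the control pool. The exception was WFS1, an ER membrane protein that restrains ATF6, whose arrays lay between 3.17 and 3.36. HSPA13 and CREB3L2 reached 5 in the treated pool alone. The 2 arrays of a pool differed by a median of 0.025 to 0.057 over the 35 genes, and by at most 0.27 (SIL1, treated pool).

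Treated and control pools were set side by side to ask whether ER folding genes differed in heated tumours. Chaperones and foldases made up 17 of the 34 detected members and 6 of the 10 called higher, and every difference was below 2-fold. Of 34 detected members 10 were higher and 1 was lower, or 29.4% and 2.94%, where the same rule called 14.6% of 7204 detected genes higher and 15.5% lower. Among the 32 members at or above 5 in both pools, 8 were higher and 1 lower, against 14.0% and 14.9% of 6837 genes. With no minimum difference, both treated arrays lay above both control arrays in 18 of the 34 members and below in 6, against 34.7% and 40.5% of detected genes. The share of members called higher depended on the probe sets used: with the mean of all probe sets of a gene, 3 of 26 detected members were higher, beside 10.9% of all detected genes. With a minimum difference of 0.5, 1 of 34 was higher, beside 4.07%. The median of the 34 was 0.10, and that of all detected genes was -0.02. By role, 6 of 17 chaperones and foldases were higher (class median 0.20), as were 1 of 5 degradation factors (0.04), 1 of 6 translocon and export genes (0.04) and 2 of 6 detected sensors and transcription factors (0.0018).

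**Figure D1:**
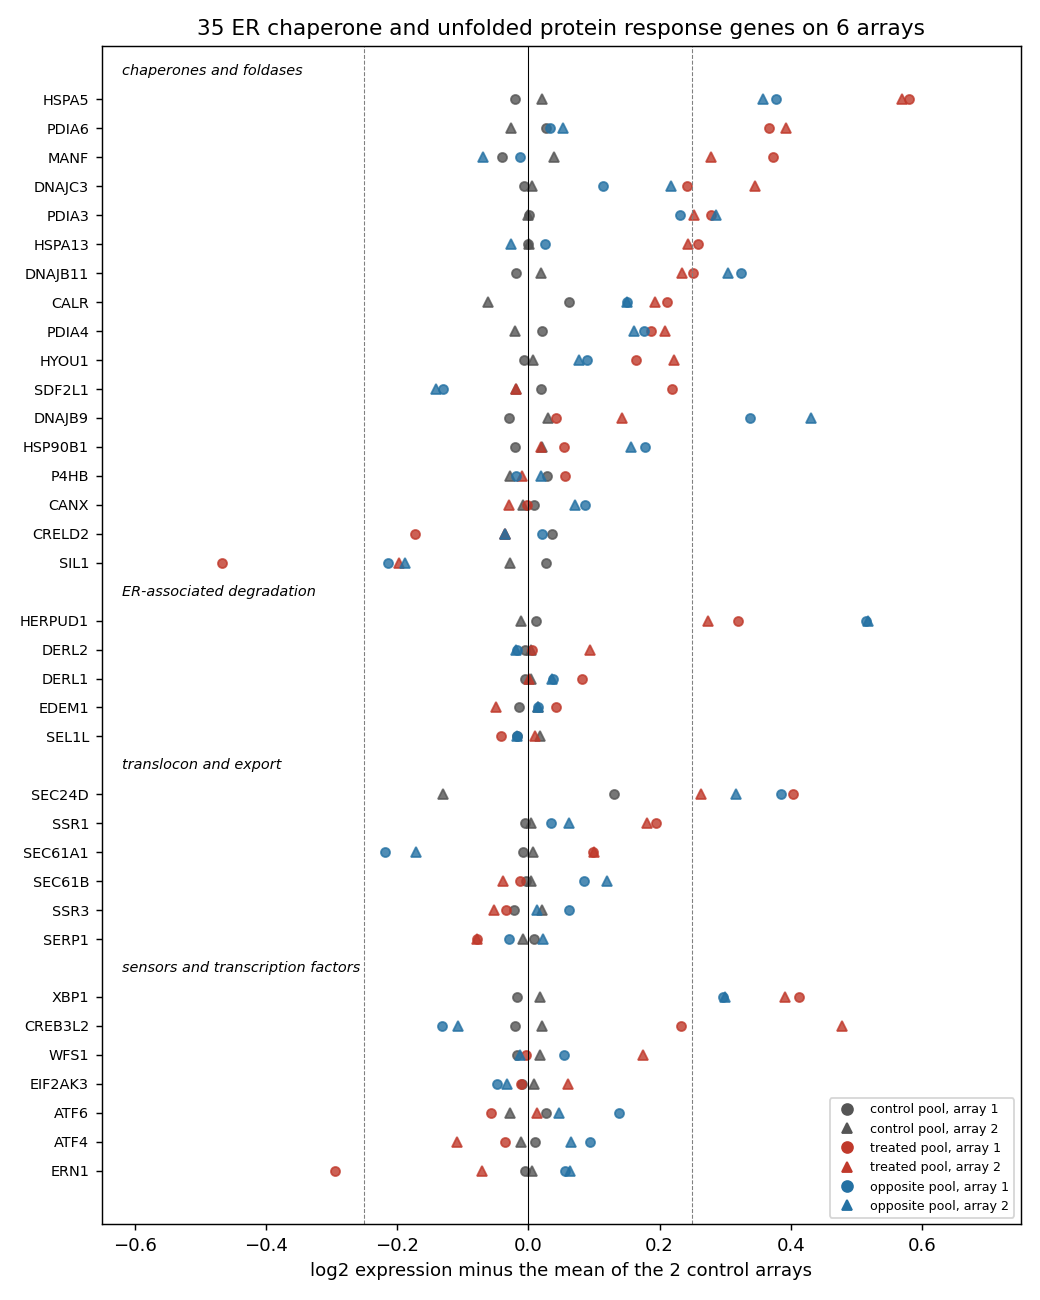
Log2 expression of each of the 35 genes on each array, minus the mean of the 2 control arrays, ordered within 4 role classes by the treated minus control difference. Circles and triangles are the 2 technical arrays of a pool and dashed lines stand at 0.25 and -0.25. HSPA5 lay farthest above control in the treated pool and HERPUD1 farthest above control in the opposite pool.

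HSPA5 encodes BiP, the HSP70 of the ER lumen that also holds the 3 sensors inactive. It stood at 10.61 and 10.65 on the control arrays, 11.21 and 11.20 on the treated arrays and 11.01 and 10.99 on the opposite arrays. The treated arrays were the highest, the control arrays the lowest, and no pools overlapped. The means were 11.21 ± 0.0078 (SD, 2 arrays) in the treated and 10.63 ± 0.030 in the control pool, a difference of 0.57 (1.49-fold). The opposite pool was 0.37 above control.

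PDIA6, a disulphide isomerase, had control arrays at 9.80 and 9.74, treated arrays at 10.14 and 10.16 and opposite arrays at 9.80 and 9.82. The treated pool stood apart, 0.38 above control and 0.34 above the opposite pool, while the opposite pool was 0.04 above control. MANF, a small secreted ER stress protein, lay at 7.36 and 7.44 in the control pool, at 7.78 and 7.68 in the treated pool and at 7.39 and 7.34 in the opposite pool. The treated mean of 7.73 ± 0.067 was 0.33 above control (7.40 ± 0.056) and 0.37 above the opposite mean (7.36 ± 0.039), with control and opposite arrays overlapping. HSPA13, an HSP70-like protein of microsomes, lay at 4.87 on both control arrays, at 5.13 and 5.11 on the treated and at 4.90 and 4.84 on the opposite arrays. The measured difference of 0.25 was just past the minimum, and the treated pool was the only one at or above 5. Taken against 5, the treated pool was at least 1.09-fold higher than either other pool, a bound below the 1.19-fold of the size rule. A second HSPA13 probe set, below 5 on every array, had another order, with the opposite pool highest. It differed by 0.07 in treated minus control, -0.45 in treated minus opposite and 0.52 in opposite minus control.

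PDIA3, the isomerase that works with the lectin chaperones, lay at 10.39 on both control arrays. Its treated arrays stood at 10.67 and 10.65 and its opposite arrays at 10.62 and 10.68. Treated and opposite arrays overlapped, and both pools were above control, by 0.27 and 0.26. DNAJC3, a lumenal J-protein that also inhibits PERK, was at 8.37 and 8.38 in the control, 8.62 and 8.72 in the treated and 8.49 and 8.60 in the opposite pool. It was 0.29 higher in the treated pool, and its opposite minus control difference of 0.17 did not reach the minimum.

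XBP1, the transcription factor activated by IRE1 splicing, was at 8.41 and 8.45 on the control, 8.84 and 8.82 on the treated and 8.73 on both opposite arrays. The pools did not overlap, and the means of 8.83 ± 0.016 and 8.73 ± 0.0021 were 0.40 (1.32-fold) and 0.30 above the control mean of 8.43 ± 0.025. The array reports total XBP1 signal, so the spliced form was not measured. CREB3L2, a related transcription factor of the ER membrane, lay at 4.93 and 4.98 in the control, 5.19 and 5.43 in the treated and 4.82 and 4.85 in the opposite pool. Taken against 5, because the control mean was below it, the treated pool was at least 1.24-fold higher.

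HERPUD1, which builds the degradation complex of the ER membrane, had the order control, treated, opposite. Its arrays stood at 8.24 and 8.22, at 8.55 and 8.50 and at 8.74 and 8.75. The treated mean of 8.53 ± 0.033 was 0.30 and the opposite mean of 8.75 ± 0.0021 was 0.52 above the control mean of 8.23 ± 0.016. SEC24D, a cargo adaptor of the COPII coat that carries proteins out of the ER, stood at 5.64 and 5.38 in the control, 5.91 and 5.77 in the treated and 5.89 and 5.82 in the opposite pool. The control arrays of SEC24D differed from each other by 0.26, and its differences from control were 0.33 and 0.35.

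SIL1, the nucleotide exchange factor of BiP, was the only member called lower than control, by 0.33. Its arrays lay at 6.12 and 6.07 in the control pool and at 5.63 and 5.90 in the treated pool. Without the first treated array the difference was -0.20 and no longer called. Of the 10 members called higher, SEC24D fell short of the minimum without the second control array (0.20), HSPA13 without the first treated array (0.24), and DNAJC3 and CREB3L2 without the second treated array (0.24 and 0.23). The other 6 were called whichever array was left out. The opposite arrays of SIL1, at 5.88 and 5.91, lay inside the range of the treated arrays or just above it.

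**Figure D2:**
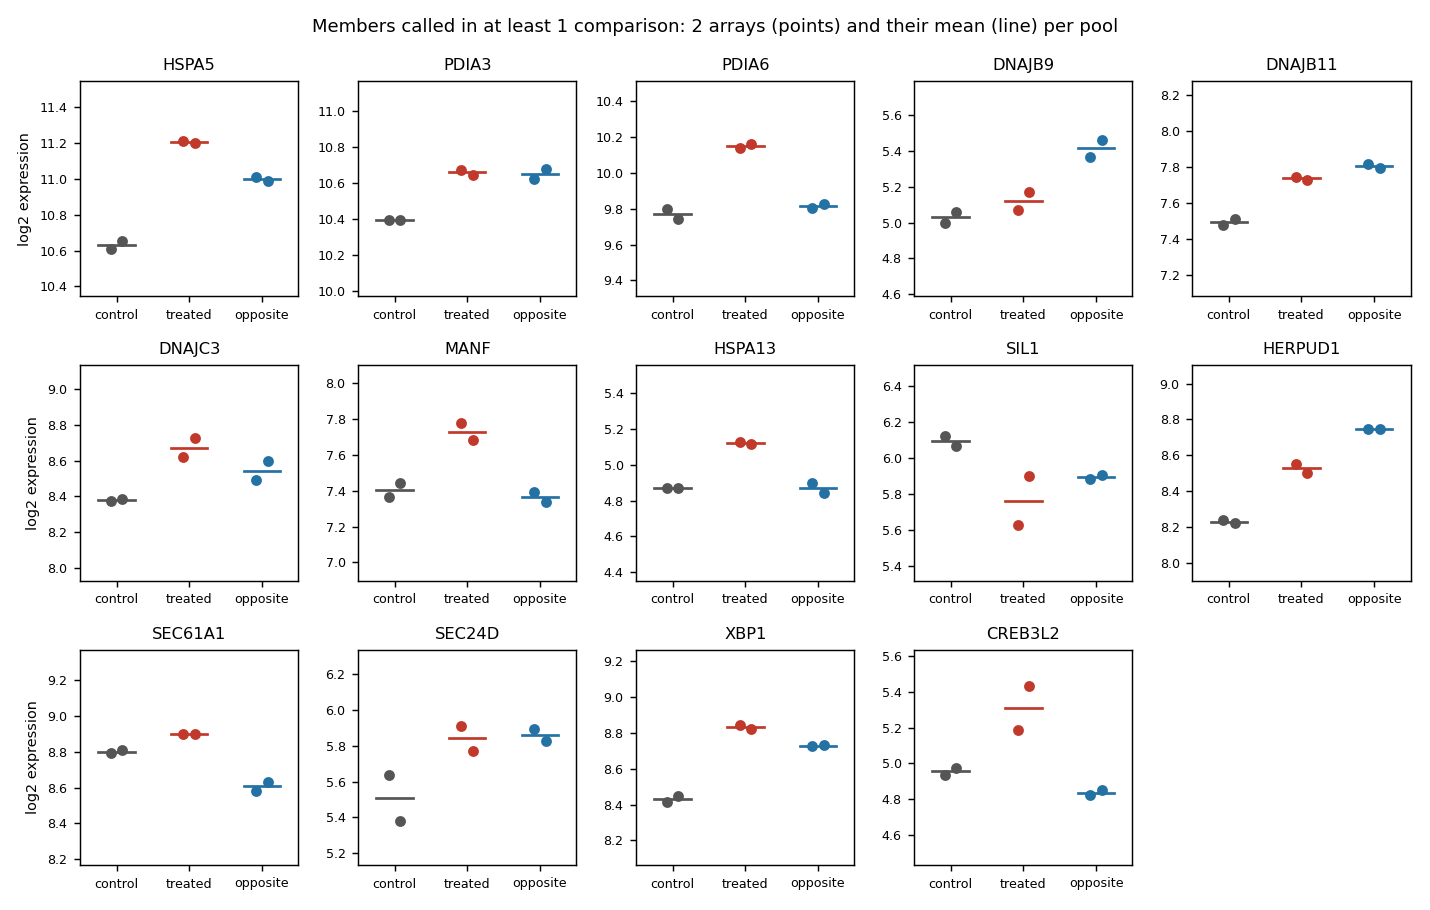
Log2 expression of the 14 genes called in at least 1 of the 3 comparisons. Points are the 2 arrays of a pool, lines their mean, and every panel spans the same range of the log2 scale. PDIA6, MANF, HSPA13 and CREB3L2 were higher in the treated pool than in both other pools, whereas HSPA5, PDIA3, HERPUD1, SEC24D and XBP1 were above control in the treated and the opposite pools.

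The remaining chaperones and foldases differed by less than the minimum between treated and control pools. DNAJB11, a BiP co-chaperone, differed by 0.24, the lectin chaperone CALR by 0.20, the isomerase PDIA4 by 0.20 and the HSP110-like HYOU1 by 0.19. In each of these 4 genes the treated arrays lay above both control arrays. SDF2L1 differed by 0.10, DNAJB9 by 0.09, HSP90B1 by 0.04, P4HB by 0.02, CANX by -0.02 and CRELD2 by -0.10. Arrays of the pools overlapped in SDF2L1, HSP90B1, P4HB, CANX and CRELD2. HSP90B1, the HSP90 of the ER, had 2 probe sets annotated with it alone, both of a kind that can bind related transcripts. The one not reported differed by 0.03. A further 2, annotated with HSP90B1 and MIR3652 together, were outside the counts though brighter, with control means of 10.10 and 11.01 against 8.41. They differed by 0.37 and 0.10 in treated minus control, and by 0.37 and 0.20 in opposite minus control. The first of them passed the size rule as higher in both.

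Of the degradation genes other than HERPUD1, EDEM1, SEL1L, DERL1 and DERL2 differed by -0.02 to 0.05. The mannosidase-like EDEM1 stood at 5.50 and 5.53 in the control and 5.55 and 5.46 in the treated pool, and SEL1L, the adaptor of the ubiquitin ligase SYVN1, at 5.98 and 6.02 and at 5.96 and 6.01. A probe set annotated with SYVN1 and MIR6751 together lay at 5.74 on both control arrays, at 5.88 and 5.76 on the treated and at 5.32 and 5.22 on the opposite arrays. The opposite pool was the lowest there, called lower than control (-0.47), and the treated pool was called higher than the opposite pool (0.545). Of the translocon genes, the channel subunits SEC61A1 and SEC61B differed by 0.10 and -0.03, the translocon-associated SSR1 and SSR3 by 0.19 and -0.04, and SERP1 by -0.08.

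The sensors differed little between treated and control pools. ATF6 differed by -0.02, EIF2AK3 by 0.03 and ERN1 by -0.18, and ATF4, the transcription factor downstream of PERK, by -0.07. ERN1 stood at 5.22 and 5.23 in the control and 4.93 and 5.16 in the treated pool, below control on both arrays but short of the minimum. The mRNA of the sensors does not report their activity, which is set by oligomerisation, phosphorylation or cleavage of the proteins.

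The genes with an ERSE or ERSE-II were not all among those called. Of these 11, 4 were higher in treated minus control (HSPA5, PDIA6, XBP1 and HERPUD1), and their differences ranged from -0.10 in CRELD2 to 0.57 in HSPA5 with a median of 0.19. Of the 21 measured genes with neither element in the searched window, 4 were higher and 1 lower, and the median was 0.05. The same rule called 14.6% of all detected genes higher and 15.5% lower in that comparison. PDIA3, DERL1 and SEC24D had no matched promoter and are in neither group, and of these PDIA3 and SEC24D were called higher. These are descriptions of the chosen genes, with no test between them.

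Heated tumours were next set against the opposite pool, the unheated tumours of heated animals. The share of members called higher lay near that of all genes. Of 34 detected members 5 were higher and 1 was lower in the treated pool, or 14.7% and 2.94%, against 14.6% and 9.73% of 7155 detected genes, and the member median was 0.0060 beside 0.01 for all detected genes. Among the 32 at or above 5 in both pools 3 were higher and 1 lower, against 13.6% and 9.3% of 6785 genes. With no minimum difference 15 members lay above the opposite pool on all arrays and 11 below, against 38.6% and 33.2%. The 5 were CREB3L2 (0.47, at least 1.24-fold against 5), MANF (0.37), PDIA6 (0.34), SEC61A1 (0.29) and HSPA13 (measured 0.25, at least 1.09-fold against 5, a bound below the size rule). SEC61A1, the channel-forming subunit of the translocon, lay at 8.79 and 8.81 in the control, 8.90 on both treated and 8.58 and 8.63 on the opposite arrays. The opposite pool was the lowest of the 3.

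DNAJB9, a BiP co-chaperone and target of XBP1, was lower in the treated pool, at 5.07 and 5.17 against 5.37 and 5.46, a difference of -0.29. Its control arrays stood at the floor of 5 and at 5.06, so the opposite pool stood apart from both others. Without the first treated or the second opposite array DNAJB9 was no longer called (-0.24 and -0.25), and neither was HSPA13 (0.24 and 0.23). HERPUD1 and ERN1 were lower by 0.22 and 0.24 in the treated pool, just short of the minimum, and HSPA5 and SDF2L1 were above the opposite pool by 0.21 and 0.24.

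Opposite minus control asks whether unheated tumours of heated animals differed in these genes. Of 32 detected members 7 were higher and 0 lower, or 21.9% and 0%, against 12.1% and 17.8% of 7182 detected genes, and the member median was 0.07 beside -0.02. The same 32 were at or above 5 in both pools, where the background was 11.8% and 16.6% of 6799 genes. With no minimum difference 20 members lay above control on all arrays and 5 below, against 34.0% and 42.4%. This comparison shares the control arrays with the first. The 7 were HERPUD1 (0.52, 1.43-fold), DNAJB9 (0.38), HSPA5 (0.37), SEC24D (0.35), DNAJB11 (0.31), XBP1 (0.30) and PDIA3 (0.26). SEC24D was no longer called without the second control array (0.22), nor PDIA3 without the second opposite array (0.23). DNAJB11 stood at 7.48 and 7.51 in the control, 7.75 and 7.73 in the treated and 7.82 and 7.80 in the opposite pool, with no overlap. The chaperone class had a median of 0.12 over 16 detected genes, the translocon class 0.04 and the degradation class 0.01. SIL1 differed by -0.20 and SEC61A1 by -0.19, both below control on all arrays. The sensors ATF6, ERN1 and EIF2AK3 differed by 0.09, 0.06 and -0.04, and ATF4 by 0.08.

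The counts that involve the opposite pool depended on how the arrays were scaled. The 39 detected spike-in probe sets, control RNAs added to each sample, had a median difference of 0.33 in treated minus opposite, 0.10 in treated minus control and -0.17 in opposite minus control. With all arrays set to the same spike-in median, treated minus control counts were 11 higher and 1 lower. Treated minus opposite counts became 0 higher and 13 lower of 34 members, beside 3.53% and 41.4% of all detected genes, with medians of -0.22 for members and -0.22 for all detected genes. Opposite minus control counts became 22 higher and 0 lower of 33 members, beside 42.9% of all detected genes higher and 4.58% lower, with medians of 0.30 and 0.22.

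**Figure D3:**
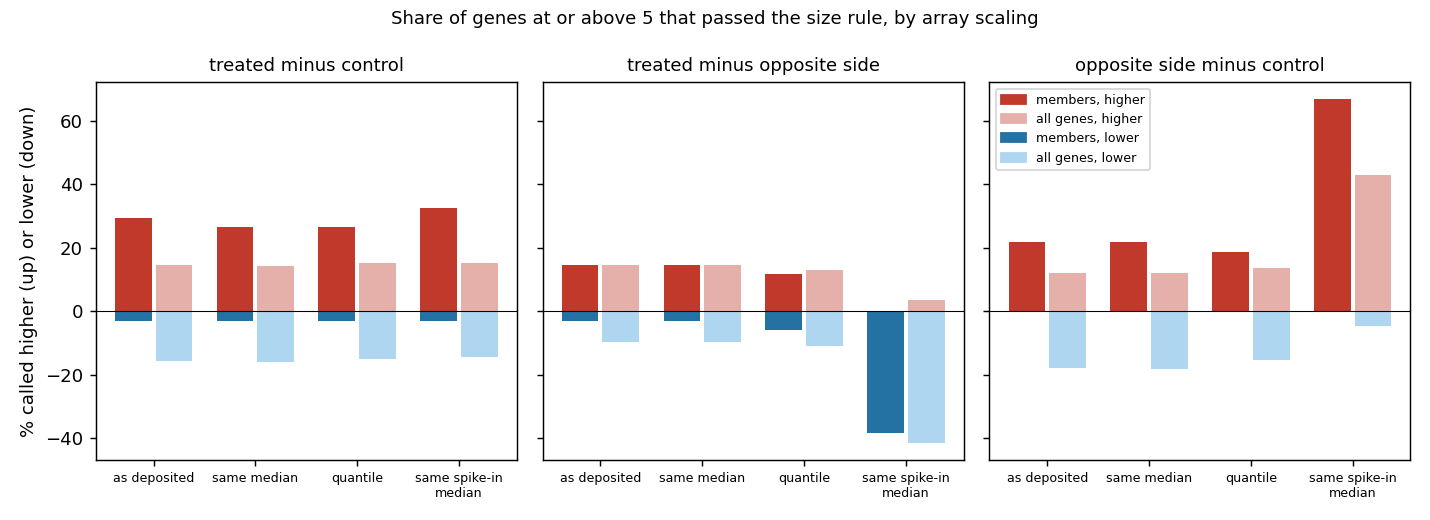
Share of detected genes called higher (bars above 0) or lower (bars below 0) in each comparison, for members (dark) and all genes (pale), for the deposited values and 3 other scalings of the arrays. In treated minus control the members' share higher was above that of all genes under each of these, and in the comparisons with the opposite pool the spike-in scaling moved members and all genes together.

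Several members had more than 1 probe set at or above 5, and these did not always agree. Of 13 such genes, 7 had probe sets on both sides of 0 in treated minus control. The second HSPA5 probe set differed by 0.17 in treated minus control, against 0.57 for the one reported. In opposite minus control it differed by -0.11, below control on all arrays, where the reported one was called higher at 0.37. In treated minus opposite it was called higher at 0.28, where the reported one was not called at 0.21. For PDIA6, 3 of 4 probe sets were called higher, at 0.27 to 0.38, all with _x_at or _s_at names. The other, at a control mean of 9.70 against 9.77, differed by 0.06, and by -0.0175 in treated minus opposite. The lectin chaperone CANX ranged from -0.02 to 0.42 over 4 probe sets, and PDIA3 from -0.03 to 0.27 over 3. SSR1 had 6 probe sets, 1 called higher (0.35) and 2 called lower (-0.29 and -0.26). For ATF6, 1 of 3 was called lower, at -0.29, and the same probe set was 0.31 above control in the opposite pool. In treated minus opposite that probe set was called lower at -0.61, where the reported one was not called at -0.11.

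**Figure D4:**
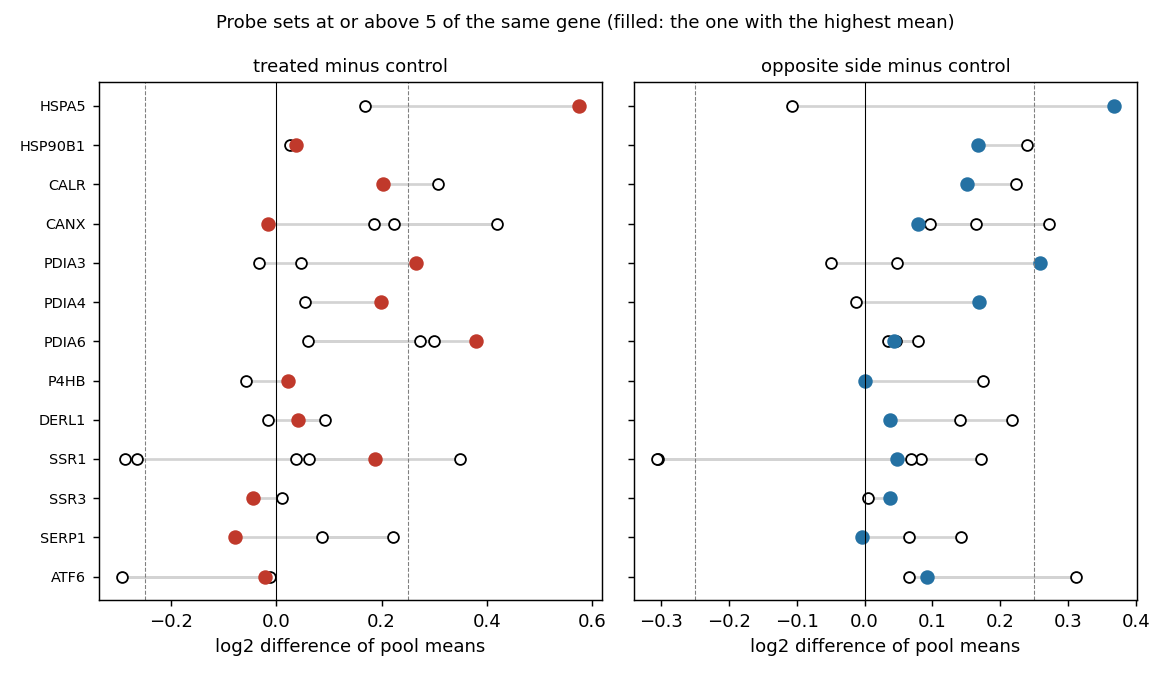
Log2 difference of pool means for every probe set at or above 5 of the 13 genes that have more than 1, for treated minus control (left) and opposite minus control (right). Filled points are the probe set that represents the gene, open points the others, and dashed lines stand at 0.25 and -0.25. The points of SSR1 lie on both sides of 0 in both panels.

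Other genes of the pathway, 105 of them detected in treated or control, were called higher about as often as all genes. Of the 105, 15 were higher and 4 lower (14.3% and 3.81%) in treated minus control, against 14.6% and 15.5% of all detected genes. Their median was 0.01. In opposite minus control 13 of 104 were higher and 11 lower (12.5% and 10.6%), against 12.1% and 17.8% of all detected genes. SERPINH1, the collagen chaperone of the ER, was higher by 1.28 in treated minus control, more than any of the 35 members. It stood at 6.89 and 6.87 in the control, 8.18 and 8.14 in the treated and 7.20 and 7.21 in the opposite pool. Among COPII genes 4 of 17 were higher in treated minus control, led by the coat GTPase SAR1B (0.85), SEC24A (0.47) and SEC23A (0.40). Of 25 further translocon and signal peptide genes, 23 were not called in treated minus control. The translocating-chain factor TRAM1 was higher by 0.54 in treated minus control and 0.58 in opposite minus control. SSR4 was lower by 0.31 in the treated pool than in control.

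Of the further folding enzymes 4 of 25 were higher and 2 lower in treated minus control, beside 14.6% and 15.5% of all detected genes. The largest differences were those of SERPINH1, the lumenal reductase DNAJC10 (0.40) and SELENOF (0.36). SELENOK, a membrane selenoprotein linked to degradation, was the only one of 19 further degradation genes called in treated minus control, at 0.37. In opposite minus control 2 of the 19 were higher and 4 lower, beside 12.1% and 17.8% of all detected genes. In the opposite pool the mannosidase EDEM3 was lower than in both others, by 0.49 against control and with the treated pool 0.57 above it. NFYB, a subunit of the NF-Y factor that reads the ERSE, was higher than control in the treated (0.57) and opposite (0.36) pools. Its control mean of 5.08 was close to the floor of 5. The other NF-Y subunits in the list were not called. NFYC differed from control by -0.025 in the treated and 0.085 in the opposite pool. NFYA, below 5 on every array, differed by -0.0475 and -0.231. ERN2, the epithelial relative of IRE1, was lower than control in the treated and opposite pools, by 0.41 and 0.38.

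A further list was drawn up for the genes that follow PERK and ATF4. In treated minus control 3 of 11 were higher and 1 lower, beside 14.6% and 15.5% of all detected genes. The lower one was ERN2, which was in this list too but is the relative of IRE1 and not a gene that follows PERK. DDIT3, the pro-apoptotic factor CHOP, lay at 7.22 on both control arrays, at 7.10 and 6.98 on the treated and at 7.30 and 7.23 on the opposite arrays. The treated pool was lowest, by 0.18 against control, short of the minimum. ATF3 differed by 0.0035. ASNS, the asparagine synthetase, was higher by 0.36 in the treated and 0.42 in the opposite pool, and PPP1R15B, a phosphatase subunit that reverses PERK signalling, by 0.36 and 0.28. PPP1R15A, its inducible relative, reached 5 in the treated pool alone, at 5.25 and 5.22, with opposite arrays at 4.50 and 4.55. The measured treated minus opposite difference was 0.71, but against 5 the treated pool was at least 1.17-fold higher, a bound below the size rule.

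For scale, HSPA6 and DNAJB1, inducible chaperones of the cytosol, were higher by 3.86 (at least 13.1-fold against 5) and 1.91 in the same treated minus control comparison. Marker sums of other cells also differed between pools, but few genes carried the fibroblast, muscle and leukocyte sums or that of plasma and B cells. The host cells are from mouse, and how mouse RNA bound these probe sets was not tested. Of 14 colon epithelium markers 11 were at or above 5 in each pool, with a summed linear signal of 38780 to 38785 on control, 41661 to 41944 on treated and 42594 to 42599 on opposite arrays. Of 12 fibroblast markers 4 were at or above 5, and their summed linear signal was 390 to 428 on control, 828 to 839 on treated and 700 to 715 on opposite arrays, while SPARC was at the shared lowest value on every array, and PDGFRB on all but the first treated array, where it differed in the last decimal. TAGLN, VIM and COL1A1 were higher in treated minus control, by 1.66, 1.14 and 0.67, and FN1 differed by 0.01. Of 12 muscle markers 3 to 4 were at or above 5, with sums of 274 to 283, 341 to 353 and 289. In treated minus control MYL11 was higher by 1.60, ACTA1 was at least 1.21-fold higher against 5, and TNNT1 was lower by 0.45. The plasma cell markers JCHAIN and TNFRSF17 were at the lowest value on every array, and the sum of the 13 markers of plasma and B cells was 630 to 633 on control and 596 to 615 on the other arrays. Of these 13, 2 were at or above 5, SDC1 and FKBP11, and FKBP11 was also among the further folding enzymes. Leukocyte markers reached 5 in 1 of 7 (LYZ), with sums of 3071 to 3180, 3637 to 3686 and 3418 to 3508, and endothelial markers in 0 to 1 of 7. LYZ had means of 11.59, 11.82 and 11.74 in the control, treated and opposite pools. CD14, CSF1R, CD3E and ADGRE1 were at the lowest value on every array. The ACTB probe set nearest the 5′ end, which is sensitive to RNA degradation, was 1.12 higher in the treated and 1.28 higher in the opposite than in the control pool, and that for the 5′ end of GAPDH differed by -0.46 and -0.01. The part of the fibroblast signal and of RNA integrity in the differences from control was not tested. In bulk tissue, fewer cells of a type and less RNA per cell cannot be told apart.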

How the data were processed

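Total RNA of 3 pools was measured on 6 Affymetrix arrays of 54675 probe sets, 2 technical arrays per pool. The authors deposited log2 values, made with GCRMA per the submitters' processing notes (no version given). GCRMA corrects background, applies quantile normalization and summarises probes, so a shift shared by all genes is removed. The lowest value, 2.37, is shared by the arrays. Probe sets naming several genes were left out.

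The members and gene lists were chosen with earlier results of these data known. All 36 members are accounted for. For the further lists, the up to 3 called genes per list and comparison with the largest difference were considered, and only some were named. Among those not named in opposite minus control, CREB3L1 (measured -0.53), DDIT4 (-0.51), UBAC2 (-0.36), SURF4 (-0.35), MAN1B1 (-0.345) and SEC24C (-0.34) were lower. SRP54 (0.30) was higher. DDIT3, ATF3, HSPA6, DNAJB1 and the marker genes were named besides.

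The size rule was run on simulated arrays before use. Alternatives were other floors, minimum differences, scalings, probe set choices, leaving out each array, and limma with Benjamini-Hochberg adjustment at 0.05, which compares pools against array error. No protein sequences were used here. The work was done in R 4.3.3 with limma 3.58.1 and in Python 3.11.15 with pandas 2.3.3, numpy 2.4.6 and matplotlib 3.10.9.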

Additional observations from a re-analysis of the deposited data

How the results depend on the processing

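No call between pools rests on replicate animals, and the number of arrays limits precision. Under limma in place of array agreement, treated minus control stayed at 10 higher and 1 lower, treated minus opposite at 5 and 1, and opposite minus control at 7 and 0, without and with the technical replicate number as a replicate block. The numbers do not pair the arrays (correlations of deviations 0.0087 to 0.021).

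Counts are given as higher and lower, in the order treated minus control, treated minus opposite, opposite minus control. With a minimum difference of 0.5 they were 1 and 0, 0 and 0, 1 and 0, beside 4.07%, 3.37% and 2.41% of all detected genes higher, and with a minimum of 1 all were 0. With no minimum difference they were 18 and 6, 15 and 11, 20 and 5. With a floor of 6, treated minus opposite had 3 higher and 0 lower and a median of 0.026, and opposite minus control had a median of 0.0795 (0.0543 with a floor of 4). With the mean of all probe sets, higher counts were 3, 1 and 2 of 26 detected members, beside 10.9%, 10.0% and 8.45% of all genes, lower in treated minus opposite 0, and the treated minus control median 0.0478. There HSPA13 in treated minus opposite turned to -0.10. Leaving out _x_at and _s_at probe sets, treated minus control had 7 higher and 2 lower of 24, beside 16.5% and 16.1% of all genes, and a median of 0.052. PDIA6, HERPUD1 and CREB3L2 were no longer called there. Treated minus opposite had 2 higher, and PDIA6 in it turned to -0.0175. HERPUD1 in opposite minus control turned to -0.0125, on a probe set below 5. Quantile normalization gave 2 lower in treated minus opposite. The spike-in scaling gave medians of 0.11, -0.22 and 0.30, with 0 higher and 13 lower in treated minus opposite and 22 higher in opposite minus control.

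Leaving out 1 array at a time, treated minus control had 9 to 11 higher, 0 to 2 lower and a median of 0.0773 to 0.10. Treated minus opposite had 4 to 6 higher, 0 to 3 lower and a median of -0.00075 to 0.0258. Opposite minus control had 6 to 7 higher, 0 lower and a median of 0.06 to 0.07. By array, lower counts in treated minus control were 0 without the first and 2 without the second treated array. In treated minus opposite they were 0 without the first treated or the second opposite array, and 3 without the second treated array.

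Chosen after seeing the data, including probe sets that name a member and a microRNA gave 1 lower and a median of 0.06 in opposite minus control. It gave 6 higher in treated minus opposite. Setting arrays to the same median of probe sets at or above 5 gave medians of 0.11, -0.0135 and 0.11 and 2 lower in treated minus opposite. The cause of these changes was not tested.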
